A study of Mus musculus with 6 samples.

Results

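The 7 mouse sirtuin genes, Sirt1 to Sirt7, were followed through RNA sequencing of cultured neural stem and progenitor cells. They were taken by symbol, matched to Entrez gene identifiers, and all 7 were found among the 17254 gene identifiers of the deposited tables, with a value above 0 in each of the 6 libraries. The cells grew in N2 medium with EGF and bFGF, and the study set out to read gene expression after 48 h at different intracellular redox potentials. There were 3 groups of 2 libraries: control cells, cells given PQ and cells given NAC. Neither abbreviation is written out in the labels, which also name no dose, mouse strain or age. It is not stated whether both libraries of each group stem from independent cultures, so the p-values reflect only library-to-library spread, possibly technical.

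Sirtuins are deacylases that remove acetyl and related groups from lysines and consume NAD for each group removed, which ties their activity to the NAD supply of the cell. SIRT1, SIRT6 and SIRT7 act mainly in the nucleus, SIRT2 mainly in the cytosol, and SIRT3, SIRT4 and SIRT5 in mitochondria. In neural progenitors SIRT1 is known for a part in the choice between neuronal and astrocyte fate when the redox state shifts. RNA levels, as measured here, do not report enzyme activity.

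Sirt1, the only sirtuin that passed the edgeR test, lies on chromosome 10 from 63319005 to 63339035 on the minus strand of the GRCm38.p6 assembly. The 250 bases before its RefSeq start site, chr10:63339036-63339285, are shown 5′ to 3′ as the promoter of the member the results turn on, with the E-box CACGTG, a site bound by Myc and related factors, in capitals.
Sirt1: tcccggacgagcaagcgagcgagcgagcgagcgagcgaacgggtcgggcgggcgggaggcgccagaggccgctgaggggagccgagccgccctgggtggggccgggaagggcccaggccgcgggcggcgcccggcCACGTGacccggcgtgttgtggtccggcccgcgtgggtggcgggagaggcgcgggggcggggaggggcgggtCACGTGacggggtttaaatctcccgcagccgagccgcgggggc
The E-box reads the same on both strands, and its first bases stand 115 and 43 bases before the start. Of 32851 RefSeq windows of 250 bases before a start, 6.0% hold CACGTG and 0.43% hold it 2 or more times, and of the 9 windows of the 7 sirtuins only that of Sirt1 holds it. The window also holds GGGCGG or its reverse complement 6 times (32.7% of all windows hold it at least once and 16.73% hold it 2 or more times). G and C make up 79.2% of the Sirt1 window, and the windows it is set beside were not matched for that share. The antioxidant response element core TGACNNNGC occurs 1 time, sharing 2 bases with an E-box (10.2% of all windows). The forkhead site TGTTTAC was not found in it. These matches describe letters and were not tested as binding sites.

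Summed expected counts were 9680436 to 10698241 per library, and 12813 genes passed the filter on low counts, all 7 sirtuins among them. Divided by its degrees of freedom, chi-square was 4.11 to 6.91 between libraries of the same group, above the counting noise, and 14.95 to 37.81 across groups. The cells carried their labelled identity: the defining neural stem cell genes Nes and Sox2 stood at 466.3 to 719.1 and 295.5 to 413.4 CPM (counts scaled to a common library size). Of 9 microglia and blood markers 1 could be tested and the sum was at most 4.47 CPM, with Tyrobp and Hbb-bs at 0 in every library. Several marker lists moved with the groups. The summed level of the 12 neural stem cell markers was 6639 to 6814 CPM in control, 7117 to 7355 with PQ and 4957 to 4981 with NAC. Vim was the largest part of that sum (4306 and 4058 CPM in control, 4871 and 4594 with PQ, 2467 and 2489 with NAC). The 10 neuron markers summed to 205.7 to 216.4, 193.0 to 201.4 and 334.7 to 374.8 CPM in that order, with Rbfox3 at 0 in every library. Map2 made up most of that sum (193.6 and 203.7 CPM in control, 191.3 and 179.8 with PQ, 359.0 and 317.9 with NAC). Tubb3, of the same list and at most 4.26 CPM, fell 3.13-fold with PQ and 4.82-fold with NAC (edgeR adjusted p 0.0111 and 0.0017). With NAC Tubb3 thus went the other way from Map2 and the sum. The 7 astrocyte markers summed to 537.5 to 565.9, 637.5 to 682.3 and 472.2 to 483.6 CPM. Gja1 made up most of that sum (392.1 and 409.4 CPM in control, 518.3 and 473.1 with PQ, 301.9 and 293.7 with NAC). With NAC against control 3 of the 7 rose (Aqp4, Slc1a2 and Gfap) and 1 fell (Gja1) by edgeR, beside 17.9% of all genes called. The median log2 fold change of the 7 was 0.65, so the sum and most called members differed in direction. Gfap alone was at most 5.96 CPM in control and PQ and 11.0 and 13.8 CPM with NAC. The 9 oligodendrocyte lineage markers summed to 1011 to 1043, 888.6 to 977.7 and 1067 to 1110 CPM, with Mog and Mag at 0. The 9 endothelial and fibroblast markers summed to 30.6 to 31.9, 20.2 to 21.1 and 23.8 to 27.6 CPM, with Cldn5 at 0. The part of these shifts in any sirtuin value was not tested, and in bulk samples a change in cell makeup and a change per cell cannot be told apart.

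Sirt2 was the most abundant sirtuin per length. FPKM, fragments scaled by transcript length and library depth, is used here to compare levels between genes, and each value is the deposited one. Sirt2 averaged 36.1 FPKM over the 6 libraries (28.5 to 42.2), above 81.25% of the genes tested, and held 41.2% to 48.8% of the summed FPKM of the family in a library. Sirt3 (10.1 FPKM, 8.61 to 12.2) and Sirt6 (10.0 FPKM, 9.15 to 11.3) followed. Sirt1 averaged 7.02 FPKM (5.32 to 9.89), Sirt7 6.55 (5.48 to 7.18), Sirt4 5.29 (4.22 to 6.22) and Sirt5 3.31 (2.54 to 4.12).

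The order held only in part. Sirt2 was above every other member in 6 of 6 libraries, with a mean 3.56 times that of Sirt3 and no overlap of the ranges. Sirt3 and Sirt6 had nearly the same mean (ratio 1.01). Sirt6 was above Sirt1 in 5 of 6 libraries, the exception being NAC replicate 1, and Sirt1 was above Sirt7 in 3 of 6. Sirt7 was above Sirt4, and Sirt4 above Sirt5, in 6 of 6. The ranges of Sirt4 and Sirt5 did not overlap. The summed FPKM of the family was 72.5 ± 4.59 in control, 79.0 ± 8.12 with PQ and 83.6 ± 4.15 with NAC (SD, n = 2).

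**Figure D1:**
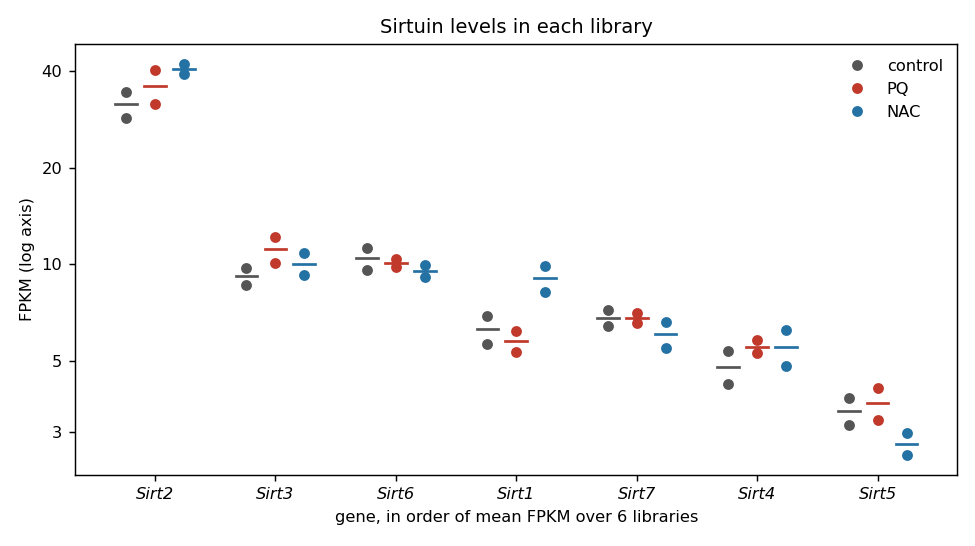
FPKM of the 7 sirtuins on a log axis, with 1 point per library and a line at the mean of each group of 2 (grey control, red PQ, blue NAC). Sirt2 lies at 28.5 to 42.2 FPKM, above all others, and both NAC points of Sirt1 (9.89 and 8.19) lie above its control and PQ points.

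Sirt1, which encodes the nuclear deacetylase of histones, p53 and FOXO factors, was higher with NAC and not detectably changed with PQ. Its level was 22.6 and 27.8 CPM in the control libraries, 24.5 and 20.7 with PQ, and 38.4 and 31.7 with NAC, from 218 to 414 counts per library. Both NAC libraries were above all 4 others, whereas control and PQ overlapped. Against control the group mean went from 25.2 ± 3.68 to 35.0 ± 4.73 CPM with NAC (SD, n = 2), a 1.39-fold rise. The log2 fold change was 0.47 ± 0.14 (SE, 95% interval 0.17 to 0.78), with an edgeR adjusted p of 0.0285 over all genes tested. With PQ the mean was 22.6 ± 2.64 CPM, and the log2 fold change of -0.16 ± 0.15 (95% interval -0.48 to 0.16, edgeR adjusted p = 0.513) did not pass.

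The direct comparison of the agents gave the largest difference in the family. Sirt1 was 1.55-fold lower with PQ than with NAC, with a log2 fold change of -0.64 ± 0.15 (95% interval -0.94 to -0.33, edgeR adjusted p = 0.00271). Among all genes called in this comparison 43.8% differed by more than Sirt1, and among those called between NAC and control 65.7% did.

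The 2 libraries of a group differed for Sirt1 by 20.6% (control), 16.5% (PQ) and 19.1% (NAC), against a counting SD of 7.44% to 9.40% for such a difference. The rise with NAC did not hold under every setting: its edgeR adjusted p was 0.161 without control replicate 1 and 0.275 without NAC replicate 1, where the log2 fold change was 0.34 and 0.33. It was 0.071 by DESeq2, 0.0516 and 0.0508 by limma on FPKM, and 0.0538 with the runs of library numbers in the titles (8 to 10 and 11 to 13) as a block. The difference between PQ and NAC passed with DESeq2, limma and that block. Its edgeR adjusted p was 0.0568 without PQ replicate 2 and 0.0588 without NAC replicate 1.

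**Figure D2:**
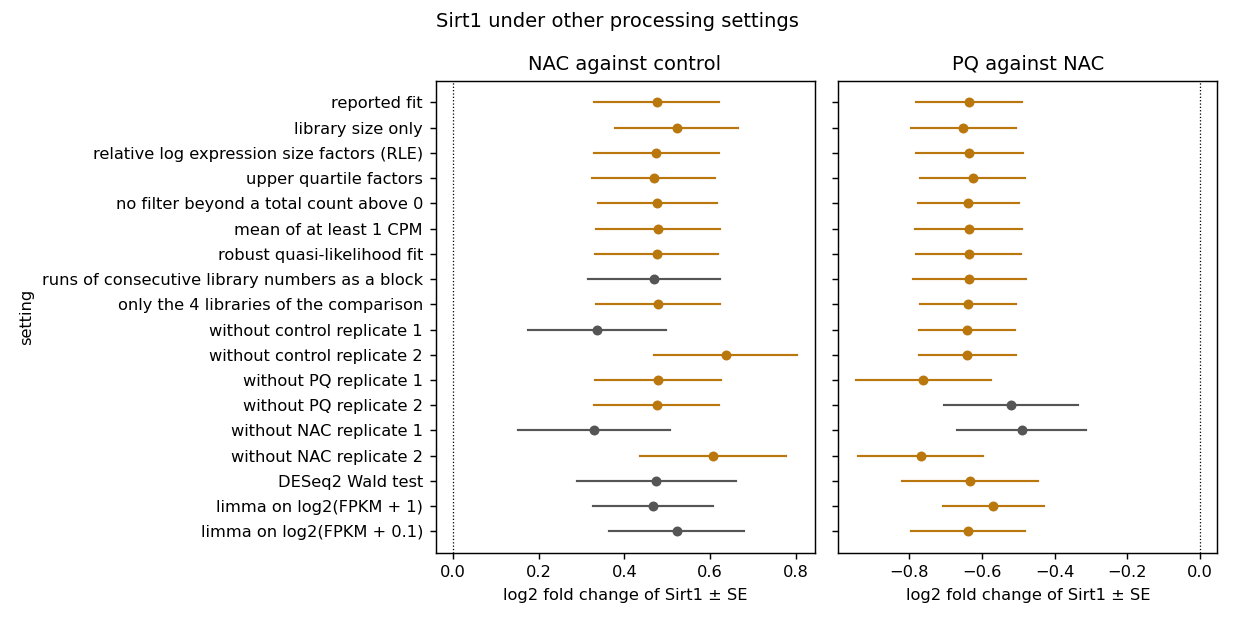
Log2 fold change of Sirt1 with its standard error for NAC against control (left) and PQ against NAC (right), 1 row per processing setting, orange where the adjusted p is under 0.05 and grey where it is not. The left values run from 0.33 to 0.64 and the right ones from -0.77 to -0.49, so the sign was the same in all rows.

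Sirt2 encodes the mainly cytosolic sirtuin that deacetylates alpha-tubulin, and its transcript is abundant in oligodendrocyte lineage cells. It stood at 63.4 and 52.9 CPM in control, 57.9 and 71.4 with PQ and 70.3 and 73.1 with NAC. The PQ and control values overlapped, and the NAC libraries lay close together, both above control. The NAC mean of 71.7 ± 1.99 CPM was 1.23-fold the control mean of 58.1 ± 7.41 (SD, n = 2). The log2 fold change of 0.30 ± 0.12 (95% interval 0.05 to 0.55) had an edgeR adjusted p of 0.0882, short of the threshold. It passed without control replicate 1 (0.44, edgeR adjusted p = 0.0213) and narrowly with no filter on low counts (0.30, edgeR adjusted p = 0.0487). With PQ the log2 fold change was 0.15 ± 0.12 (-0.10 to 0.40, edgeR adjusted p = 0.42). Without PQ replicate 2 it was -0.0072. PQ and NAC differed by -0.15 ± 0.12 (-0.39 to 0.10, edgeR adjusted p = 0.372).

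None of the mitochondrial sirtuins passed in any comparison. Sirt3, the main mitochondrial deacetylase, stood at 12.5 and 14.4 CPM in control, 14.7 and 17.5 with PQ and 13.2 and 15.2 with NAC. Both PQ libraries were above both control libraries by a small margin, and NAC overlapped with each. The log2 fold change with PQ was 0.26 ± 0.16 (95% interval -0.09 to 0.60, edgeR adjusted p = 0.313) and with NAC 0.07 ± 0.17 (-0.27 to 0.42, edgeR adjusted p = 0.804).

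Sirt4, which encodes an ADP-ribosyltransferase and lipoamidase that restrains glutamate dehydrogenase, stood at 8.39 and 6.65 CPM in control, 9.05 and 8.08 with PQ and 7.42 and 9.41 with NAC. Its groups all overlapped. The log2 fold changes were 0.18 ± 0.20 with PQ (-0.25 to 0.61) and 0.16 ± 0.20 with NAC (-0.27 to 0.59).

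Sirt5, which removes succinyl, malonyl and glutaryl groups, was the least abundant member, with 34 to 58 counts per library. It stood at 4.35 and 5.30 CPM in control, 4.47 and 5.51 with PQ and 3.99 and 3.37 with NAC. Both NAC libraries were the lowest of the 6. The log2 fold change with NAC against control was -0.39 ± 0.26 (95% interval -0.93 to 0.16, edgeR adjusted p = 0.337), and that of PQ against NAC 0.44 ± 0.26 (-0.09 to 0.98, edgeR adjusted p = 0.207). The counting SD of a difference between 2 libraries was 20.1% to 23.0% for Sirt5.

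Sirt6 and Sirt7 act on chromatin, SIRT6 in DNA repair and in restraint of glycolytic genes and SIRT7 at ribosomal DNA. Sirt6 stood at 19.2 and 16.5 CPM in control, 16.7 and 17.3 with PQ and 15.3 and 16.4 with NAC, so that NAC was just below control. Its log2 fold changes were -0.07 ± 0.15 with PQ (95% interval -0.39 to 0.24) and -0.17 ± 0.15 with NAC (-0.49 to 0.14). Sirt7 stood at 12.4 and 11.2 CPM in control, 11.2 and 11.9 with PQ and 9.27 and 11.1 with NAC. Here too the NAC libraries were the lowest, by a margin smaller than the gap between them. The log2 fold changes were -0.03 ± 0.17 with PQ (-0.39 to 0.32) and -0.22 ± 0.17 with NAC (-0.58 to 0.14), and edgeR adjusted p was 0.424 or more for both genes in both comparisons with control.

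**Figure D3:**
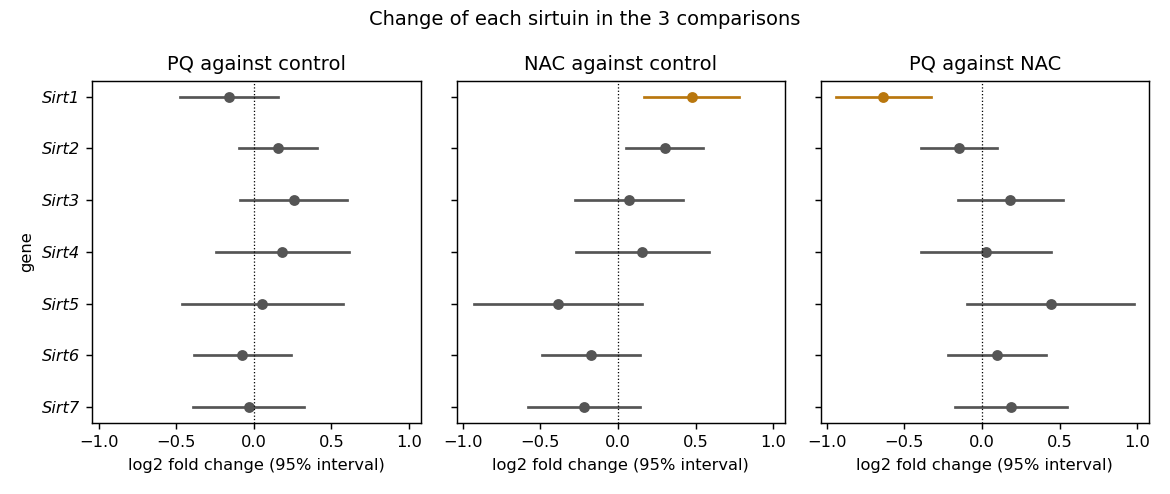
Log2 fold change of each sirtuin with its 95% interval in the 3 comparisons, orange where the adjusted p is under 0.05 and grey where it is not. Sirt1 is orange with NAC against control (0.47) and with PQ against NAC (-0.64), and the other intervals except that of Sirt2 with NAC (0.05 to 0.55) include 0.

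Counted over the family, PQ against control called 0 of 7 sirtuins by edgeR, where 17.9% of all genes tested were called (9.07% higher and 8.8% lower). An unadjusted p under 0.05 was reached by 0 of 7, against 30.6% of all genes, and DESeq2 and limma called 0 as well. The groups did not overlap for 1 of 7 (Sirt3), against 57.2% of all genes (29.0% higher and 28.2% lower). NAC against control called 1 of 7 (Sirt1), against 17.9% of all genes (8.65% higher and 9.26% lower), and 2 of 7 had an unadjusted p under 0.05, against 30.8%. Scaled by library size only, 1392 genes were called higher and 986 lower with NAC, beside 1108 and 1186 here, and Sirt1 was called in both. The groups did not overlap for 5 of 7, Sirt1 and Sirt2 being higher and Sirt5, Sirt6 and Sirt7 lower, against 56.6% of all genes (28.3% higher and 28.3% lower). PQ against NAC called 1 of 7 (Sirt1), against 30.6% of all genes (15.5% higher and 15.1% lower), and 1 of 7 had an unadjusted p under 0.05, against 40.7%. The groups did not overlap for 4 of 7, Sirt1 being lower and Sirt5, Sirt6 and Sirt7 higher with PQ, against 66.0% (33.1% higher and 32.9% lower). Over the 3 groups together the quasi-likelihood F test called 1 of 7, Sirt1 (edgeR adjusted p = 0.00486), against 35.9% of all genes, and Sirt2 had an edgeR adjusted p of 0.13. The median log2 fold change of the 7 sirtuins was 0.06 with PQ, 0.07 with NAC and 0.10 for PQ against NAC, beside medians of all genes of -0.0024, -0.0023 and 0.0011. The first 2 comparisons share the control libraries.

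Several sirtuins sit close to another gene. Sirt3 starts 85 bases from Psmd13, a proteasome subunit gene read in the other direction, and Sirt2 starts 108 bases from Nfkbib, which encodes an inhibitor of NF-kB. Sirt6 starts 29 bases from Ankrd24. Sirt3 shares 5.7% of its exonic bases with Psmd13 and 7.0% with Ric8a, both on the opposite strand. Strand use in the counting is not given in the sources used here, so the counts of Sirt3 can hold reads of these neighbours. Psmd13 fell with NAC (-0.28 ± 0.09, edgeR adjusted p = 0.036). Leaving out any 1 of the 6 libraries ended that call (0.0645 to 0.184), and so did scaling by library size only (0.0762) and the block on runs of library numbers (0.0681). Ric8a was higher with PQ than with NAC (0.41 ± 0.11, edgeR adjusted p = 0.00632, and 0.137 without PQ replicate 2 and 0.0707 without NAC replicate 1), a comparison in which Sirt3 gave 0.18 ± 0.16. Nfkbib (0.00 ± 0.15 with NAC) and Ankrd24 (-0.08 ± 0.16) did not pass. The nearest protein-coding genes of Sirt1 are Herc4, 1124 bases beyond its 3′ end, with -0.06 ± 0.10 for NAC against control, and Dnajc12, 43408 bases away, with 0.63 ± 0.29 (edgeR adjusted p = 0.145). In GENCODE, whose Sirt1 model reaches upstream of the RefSeq start, 1.2% of its exonic bases are shared with the antisense gene Gm16145. Gfod1, 61217 bases from Sirt5, was higher with PQ than in control (0.44 ± 0.10, edgeR adjusted p = 0.00507, and 0.0958 without PQ replicate 2).

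Among the genes most like Sirt1 over the 6 libraries, by Pearson correlation of log2 CPM among 10766 genes of at least 5 CPM, were Uri1 (0.997), which encodes a prefoldin-like protein, and Gnaq (0.996), a G protein subunit. These correlations rest on only 6 points in 3 groups, and 326 of the 10766 genes exceeded 0.9. The changes of Uri1 and Gnaq were smaller than that of Sirt1, for Uri1 0.22 and for Gnaq 0.22 on the log2 scale with NAC against control.

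Genes that make or use NAD were set beside the sirtuins. Of 18 NAD synthesis genes 9 could be tested. With PQ 0 passed by edgeR, DESeq2 or limma (1 had an unadjusted p under 0.05), with NAC 0 rose and 1 fell, and 3 were higher and 0 lower in PQ against NAC, beside 17.9%, 17.9% and 30.6% of all genes in the 3 comparisons. The one that fell was Nampt, the rate-limiting enzyme of NAD salvage from nicotinamide. It stood at 265.8 and 281.5 CPM in control, 278.5 and 238.2 with PQ and 175.6 and 183.8 with NAC, both NAC libraries well below the rest. Nampt was 1.52-fold lower with NAC than in control (log2 fold change -0.61 ± 0.10, edgeR adjusted p = 0.000215), and this call remained under every alternative run. Nmnat1 and Nmnat2, which form NAD from nicotinamide mononucleotide and ATP, were higher with PQ than with NAC by 0.61 ± 0.18 and 0.44 ± 0.14 (edgeR adjusted p 0.0144 and 0.0186). Both calls ended when any 1 of the PQ or NAC libraries was left out (edgeR adjusted p 0.0515 to 0.106) and with DESeq2 (adjusted p 0.086 and 0.0637). The median of the 9 genes was -0.14 with PQ and -0.21 with NAC.

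Of 11 other NAD-using genes 8 could be tested. With PQ 2 rose and 2 fell, with NAC 0 passed by edgeR or DESeq2 (2 had an unadjusted p under 0.05, and limma called 0 and 1 at pseudocounts of 1 and 0.1), and 2 were higher and 2 lower in PQ against NAC, beside 17.9%, 17.9% and 30.6% of all genes in the 3 comparisons. Cd38, an NAD glycohydrolase of the cell surface, stood at 14.3 and 15.1 CPM in control, 28.4 and 28.2 with PQ and 18.0 and 21.1 with NAC. It was highest with PQ, a 1.93-fold rise over control (0.95 ± 0.14, edgeR adjusted p = 0.000198), and the groups did not overlap. Parp1 and Parp2, poly(ADP-ribose) polymerases of DNA damage signalling, fell 1.33-fold and 1.45-fold with PQ (edgeR adjusted p 0.0134 and 0.0125). Parp1 stood at 155.5 and 123.1 CPM in control, 104.7 and 105.1 with PQ and 162.3 and 158.1 with NAC. Leaving out control replicate 1 gave it an edgeR adjusted p of 0.173 with PQ, and leaving out the first or second PQ library gave 0.0825 or 0.106. For Parp2 that p was 0.0637 with control replicate 2 left out and 0.144 with PQ replicate 2 left out. Parp1 and Parp2 were also lower with PQ than with NAC, with log2 fold changes of -0.61 ± 0.11 and -0.63 ± 0.14 (edgeR adjusted p 0.000299 and 0.002), and both differences passed without any 1 library. Parp3, a mono-ADP-ribosyltransferase, rose with PQ by 0.38 ± 0.12 (edgeR adjusted p = 0.0336, and 0.0664, 0.0825 and 0.409 without control replicate 1, control replicate 2 and PQ replicate 2). That call of Parp3 also ended with the block on runs of library numbers (0.0546) and with DESeq2 (0.0825), and limma called neither Parp1 (adjusted p 0.061 and 0.0598) nor Parp3 (0.056 and 0.0545).

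**Figure D4:**
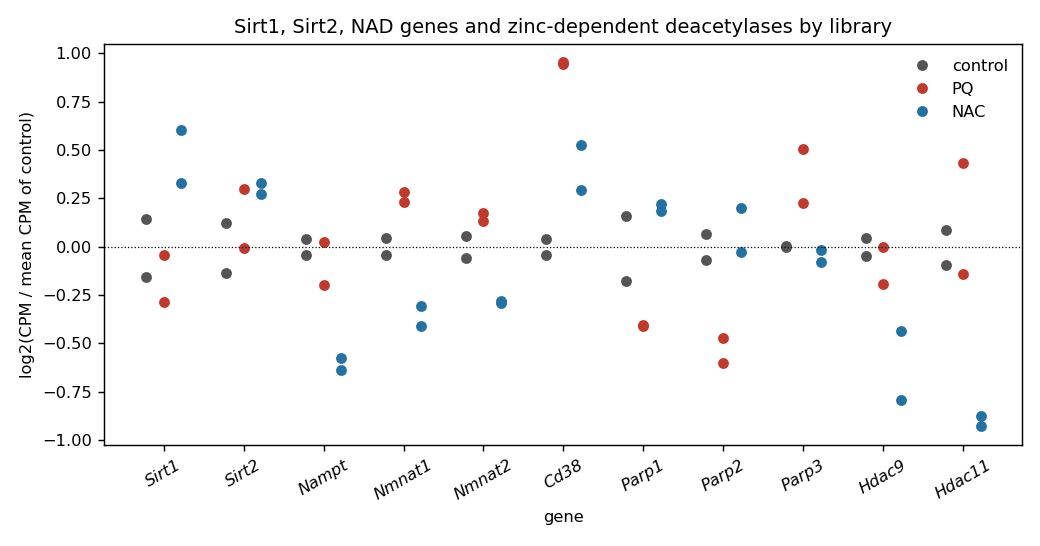
Log2 ratio of CPM to the control mean for Sirt1, Sirt2, the NAD genes that passed a test and 2 zinc-dependent deacetylases, with 1 point per library (grey control, red PQ, blue NAC). Sirt1 is highest and Nampt lowest in the NAC libraries, while Cd38 is highest and Parp1 and Parp2 are lowest in the PQ libraries.

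The zinc-dependent deacetylases, the other enzyme class that removes acetyl groups from histones, were all measured. Of 11 tested, 0 passed with PQ by edgeR, DESeq2 or limma (1 had an unadjusted p under 0.05), 2 fell and 0 rose with NAC, and 2 were higher and 0 lower in PQ against NAC, beside 17.9%, 17.9% and 30.6% of all genes in the 3 comparisons. Hdac9 stood at 18.8 and 20.1 CPM in control, 17.0 and 19.4 with PQ and 14.4 and 11.2 with NAC. It fell 1.52-fold with NAC (edgeR adjusted p = 0.0139, and 0.0535 without control replicate 2 and 0.167 without NAC replicate 2). Hdac11 stood at 4.95 and 5.61 CPM in control, 4.79 and 7.13 with PQ and 2.87 and 2.77 with NAC. It fell 1.86-fold with NAC (edgeR adjusted p = 0.0293, and 0.122, 0.113 and 0.121 without control replicate 2, NAC replicate 1 and NAC replicate 2), and shares 17.9% of its exonic bases with genes on the opposite strand. For NAC against control limma gave Hdac9 an adjusted p of 0.0506 and 0.0546, and DESeq2 gave Hdac11 0.123. For PQ against NAC Hdac9 did not pass with DESeq2 (adjusted p = 0.0747) or limma (0.0753 and 0.0802). There the edgeR log2 fold changes were 0.51 ± 0.16 for Hdac9 and 1.08 ± 0.27 for Hdac11. Neither call remained without PQ replicate 2, where the log2 fold changes were 0.41 and 0.76. That of Hdac9 also ended without NAC replicate 2, where its log2 fold change was 0.34. The median of the class was -0.05 in both comparisons with control, and Hdac1 (159.5 to 177.4 CPM) and Hdac2 (219.3 to 307.4 CPM), the class I members of nuclear repressor complexes, did not pass.

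Among 19 regulators and partners of SIRT1, all tested, 2 rose and 1 fell with PQ, 3 rose and 2 fell with NAC, and 4 were higher and 5 lower in PQ against NAC, beside 17.9%, 17.9% and 30.6% of all genes in the 3 comparisons. Acss2, the acetyl-CoA synthetase that SIRT1 activates by deacetylation, stood at 143.3 and 119.9 CPM in control, 119.8 and 110.8 with PQ and 54.4 and 58.9 with NAC. It fell 2.32-fold with NAC (edgeR adjusted p = 4.41e-07), and shares 9.1% of its exonic bases with genes on the opposite strand. E2f1, a cell cycle factor that activates Sirt1 transcription, fell 1.54-fold (edgeR adjusted p = 0.00164) and Foxo4, a forkhead factor deacetylated by SIRT1, rose 1.56-fold with NAC (edgeR adjusted p = 0.00223). These 3 calls between NAC and control remained without any 1 library.

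Senp1, the SUMO protease that acts on SIRT1, was also highest with NAC: 61.2 and 54.3 CPM in control, 50.5 and 45.4 with PQ and 73.3 and 72.8 with NAC. It was 1.52-fold lower with PQ than with NAC (edgeR adjusted p = 0.000273). Its rise with NAC over control (0.34 ± 0.11, edgeR adjusted p = 0.0318) ended without control replicate 2 (0.176), NAC replicate 1 (0.137) or NAC replicate 2 (0.114), and with DESeq2 (adjusted p = 0.0727) or limma (0.063 and 0.0617). Trp53, whose protein p53 is a SIRT1 substrate, rose with NAC by 0.32 ± 0.10 (edgeR adjusted p = 0.0367), a call that was lost without control replicate 2 (0.292), either PQ library (0.0556 and 0.0593) or either NAC library (0.125 and 0.136), with the block on runs of library numbers (0.0626), and with the 4 libraries of the comparison alone (0.0526). Hic1, a repressor of Sirt1 transcription, was low, at 1.11 and 1.35 CPM in control, 3.75 and 3.90 with PQ and 0.65 and 2.48 with NAC. It rose 3.09-fold with PQ (edgeR adjusted p = 0.0148), and its edgeR adjusted p was 0.0521 to 0.0995 without control replicate 1 or either PQ library. DESeq2 gave Hic1 0.051 and limma 0.0557 at the lower pseudocount. Rela rose and Ctbp1 fell with PQ by 0.34 ± 0.10 and -0.31 ± 0.09, the subunit of NF-kB and the corepressor that joins HIC1. The call of Rela was lost without control replicate 2 (edgeR adjusted p = 0.113) or PQ replicate 2 (0.243), and that of Ctbp1 without any 1 of the control and PQ libraries (0.0504 to 0.191), with the block on runs of library numbers (0.0512) and with limma (0.0527 and 0.0535). Ccar2 and Rps19bp1, which encode the inhibitor DBC1 and the activator AROS of SIRT1, did not pass in any comparison.

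Of 16 reported substrates of the mitochondrial sirtuins and, for Gabpb1, of SIRT7, 13 could be tested. With PQ 1 rose and 2 fell, with NAC 1 rose and 2 fell, and 2 were higher and 2 lower in PQ against NAC, beside 17.9%, 17.9% and 30.6% of all genes in the 3 comparisons. Idh2, the mitochondrial isocitrate dehydrogenase that SIRT3 activates, stood at 310.9 and 310.4 CPM in control, 233.3 and 229.0 with PQ and 197.7 and 190.3 with NAC. It fell 1.34-fold with PQ (edgeR adjusted p = 0.0025, and 0.0521 without PQ replicate 2) and 1.6-fold with NAC (edgeR adjusted p = 2.53e-05). Lonp1, a mitochondrial protease, followed the same order, falling 1.34-fold with PQ (edgeR adjusted p = 0.00579, and 0.0957 without PQ replicate 2) and 1.73-fold with NAC (edgeR adjusted p = 1.9e-05). Glud1, the glutamate dehydrogenase that SIRT4 inhibits, stood at 193.0 and 206.3 CPM in control, 171.8 and 164.4 with PQ and 271.6 and 255.9 with NAC. It rose 1.32-fold with NAC (edgeR adjusted p = 0.00449, and 0.0585 without NAC replicate 1). Ppif, which encodes cyclophilin D and shares 18.3% of its exonic bases with genes on the opposite strand, rose with PQ by 0.51 ± 0.17 (edgeR adjusted p = 0.0441), a call that ended without any 1 of 5 libraries (0.0506 to 0.275) and stood only when control replicate 1 was the one left out. It also ended with the block on runs of library numbers (0.0657), with the 4 libraries of the comparison alone (0.0518) and with DESeq2 (0.16). Sod2, a superoxide dismutase that SIRT3 activates, did not pass in any comparison.

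A list of 9 genes held glycolytic genes reported as restrained by SIRT6 together with HIF1A, and Hif1a itself, which encodes that factor. Of these 9 genes 8 could be tested, and the counts that follow include Hif1a. With PQ 1 rose and 1 fell, with NAC 1 rose and 5 fell, and 6 were higher and 1 lower in PQ against NAC, beside 17.9%, 17.9% and 30.6% of all genes in the 3 comparisons. Ldha, the lactate dehydrogenase subunit, stood at 2303 and 2084 CPM in control, 1855 and 1701 with PQ and 1133 and 1353 with NAC. It fell 1.76-fold with NAC (edgeR adjusted p = 1.16e-05), as did Tpi1 (1.76-fold), Pdk1 (1.83-fold), Slc2a1 (1.54-fold) and Hif1a (1.35-fold, edgeR adjusted p = 0.00559). The call of Hif1a was lost without control replicate 2 (0.0995) or NAC replicate 2 (0.0776). Aldoc, an aldolase that also marks astrocytes, rose 2.12-fold with NAC, from 79.9 and 72.4 to 162.0 and 161.6 CPM. Ldhb rose 1.46-fold with PQ (edgeR adjusted p = 0.000908). The fall of Ldha with PQ (-0.30 ± 0.10, edgeR adjusted p = 0.0404) was lost without control replicate 1 (0.181), PQ replicate 1 (0.0687) or PQ replicate 2 (0.295), with the block on runs of library numbers (0.0866), with scaling by library size only (0.0612) and with limma (0.152 and 0.149). With NAC against control Sirt6 differed by -0.17 ± 0.15 on the log2 scale.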

How the data were processed

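The members and the gene lists were chosen with earlier results of these data known. Total RNA was sequenced on the BGISEQ-500, per the labels' protocols, and mm10, RSEM, Bowtie2 2.2.5 and HISAT2 2.0.4 appear, without roles, in the submitters' processing notes. The authors deposited expected counts, which are estimated reads per gene, per the file headers. The FPKM values were computed by the authors too, per the file headers. Genes absent from a table were set to 0. Symbols came from RefSeq (17199 of 17254 identifiers), and the unnamed rest held at most 0.079% of counts.

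Rounded expected counts entered edgeR (version 4.0.16, under R 4.3.3): filterByExpr (minimum count 10, total 15), TMM scaling, and a quasi-likelihood fit of 3 group means over 6 libraries (3 residual degrees of freedom). Adjusted p is Benjamini-Hochberg over 12813 genes, with a threshold of 0.05. CPM uses TMM factors, and SE is the absolute log2 fold change over the square root of F. DESeq2 1.42.0 and limma 3.58.1 on log2(FPKM + 1) or log2(FPKM + 0.1) were alternatives. On simulated data the test found 62.7% of 67 changes of 1.5-fold and 88.1% of 67 changes of 2-fold in NAC against control (12674 genes tested). Of the genes called there 4.57% were false, and 7.14% in PQ against control and 7.26% in PQ against NAC. The share found does not carry over to these data, because far fewer genes were changed than the 17.9% called here. No change as small as the 1.39-fold of Sirt1 was simulated, and how often such a change is missed was not tested. Of each list the 3 genes with the smallest p were to be named. Others were chosen after their values were seen. One gene that the rule on likeness to Sirt1 names is not reported here. Start sites and gene bounds are RefSeq's (GRCm38.p6), exon overlaps GENCODE's. Depth was 9680436 to 10698241 expected counts per library.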

Additional observations from a re-analysis of the deposited data

Results flagged for a closer look

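The change of Sirt1 differed between the 2 agents. Relative to control it was -0.16 ± 0.15 with PQ and 0.47 ± 0.14 with NAC on the log2 scale, and the direct test of PQ against NAC gave -0.64 ± 0.15 (edgeR adjusted p = 0.00271), with both PQ libraries (24.5 and 20.7 CPM) below both NAC libraries (38.4 and 31.7 CPM). The adjusted p was 5.45e-05 to 0.0588 over the 17 edgeR, DESeq2 and limma alternatives run for this comparison. The summed neural stem cell and neuron markers differ between the same groups, but members of both lists went both ways. By edgeR 3 of 10 tested stem cell markers were higher and 3 lower with PQ than with NAC. Of 5 tested neuron markers 1 was higher and 2 were lower, beside 30.6% of all genes called. The part of these markers in the difference of Sirt1 was not tested.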

How the results depend on the processing

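Over 17 alternatives in each of 3 comparisons, 336 of 357 values for the sirtuins kept their direction and their side of the threshold, 8 lost a call (all Sirt1), 2 gained one (both Sirt2) and 11 changed sign, all 11 when a library was left out and none past the threshold. Over the leave-outs the log2 fold change with PQ against control ran from -0.0072 (without PQ replicate 2) to 0.30 for Sirt2, -0.11 to 0.21 for Sirt5 (-0.08 without control replicate 1, -0.11 without PQ replicate 2), -0.18 to 0.039 (without control replicate 1) for Sirt6 and -0.10 to 0.043 for Sirt7 (0.043 without control replicate 1, 0.0073 without PQ replicate 1). With NAC against control it ran from -0.033 (without NAC replicate 2, and -0.02 without control replicate 1) to 0.18 for Sirt3 and -0.020 (without NAC replicate 2) to 0.34 for Sirt4. In PQ against NAC it ran from -0.14 (without NAC replicate 1, and -0.06 without PQ replicate 1) to 0.20 for Sirt4. Without 1 library the genes called numbered 829 to 2181 for PQ against control (829 without PQ replicate 2, 1477 without PQ replicate 1), 1338 to 2157 for NAC against control (1338 without NAC replicate 1, 1523 without NAC replicate 2) and 2427 to 4442 for PQ against NAC (2427 without PQ replicate 2, 2537 without NAC replicate 1), and the sirtuins called numbered 0, 0 to 1 and 0 to 1. In NAC against control the sirtuin called without control replicate 1 was Sirt2 in place of Sirt1. There 2 sirtuins were called with no filter on low counts, and 0 with the library-number runs as a block, with DESeq2, and with limma at either pseudocount. The cause was not tested. The titles number the libraries 8 to 13, share no number between groups and do not name a block. The runs 8 to 10 and 11 to 13, which are replicates 1 and 2 as numbered here, were used as a block. With it 1842, 1901 and 3485 genes were called. Of 62 calls among the other genes 26 held under every alternative and 0 changed sign. At 34 to 58 counts per library, Sirt5 is limited by counting error.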
